A study of Mus musculus with 16 samples.

Results

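Granulocyte-monocyte progenitors (GMP) were compared with megakaryocyte-erythroid progenitors (MEP), the progeny of the common myeloid progenitor (CMP) on its 2 branches, by their microRNA (miR) levels. The comparison holds the 3 GMP and 3 MEP arrays, chosen by sample title, of 16 one-colour Agilent mouse miR arrays of sorted bone marrow populations. All cells came from female C57Bl/6 mice with no treatment and no genetic change, and bone marrow of several young adult mice was pooled for each replicate. Both populations were lineage-depleted, c-Kit+ and Sca1-, and were separated in the same sort with CMP by CD34 and the Fc gamma receptor. GMP were positive for both markers and MEP negative for both. A gate of this kind holds a mixture of cells, so fewer cells of a type and less RNA per cell cannot be told apart. Replicates 1 and 2 of each population lay on slide 1 and the third, unnumbered in the titles and called replicate 3 here, on slide 2. GMP always lay in column 2 of a slide and MEP in column 4, so array position and population cannot be told apart.

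A miR is cut as a short duplex from the 2 arms (5p and 3p) of an RNA hairpin, and 1 strand is loaded into an Argonaute protein, where bases 2 to 8 of the miR, the seed, pair with target mRNAs. Hairpins that lie close together are often cut from a single primary transcript, and hairpins with the same seed form a family with overlapping targets. In blood, miR-223 is known as a miR of granulocytes and monocytes, and miR-144 and miR-451 as miRs of red cell precursors transcribed under the control of GATA1.

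The mature sequences of the miRs that separated the branches most are shown because array probes read these strands and because their seeds differ. Sequences and positions are from RefSeq on GRCm38.p6, with the seed in capitals. Those higher in GMP were
miR-223-3p: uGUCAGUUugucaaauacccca
miR-146b-5p: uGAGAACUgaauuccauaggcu
miR-149-5p: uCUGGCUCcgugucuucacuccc
miR-338-3p: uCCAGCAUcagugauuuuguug
miR-27a-3p: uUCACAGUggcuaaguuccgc
and those higher in MEP were
miR-144-3p: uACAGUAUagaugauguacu
miR-451a: aAACCGUUaccauuacugaguu
miR-762: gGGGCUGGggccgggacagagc
miR-711: gGGACCCGgggagagauguaag
miR-370-3p: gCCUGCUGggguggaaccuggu
The hairpin of miR-223 lies on the X chromosome (chrX:96242884-96242905 for the mature miR, + strand) within the non-coding gene F630028O10Rik. The hairpin of miR-149 lies within Gpc1, that of miR-338 within Aatk, that of miR-762 within Bcl7c, that of miR-711 within Col7a1 and that of miR-370 within Rian. The mature miR-144 (chr11:78073047-78073066) and miR-451 (chr11:78073186-78073207) lie on the + strand of a 161-base stretch outside any other gene.

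Array 1 of MEP stood apart from the other 5. Before normalization it carried 166 units of miR-1, 117 units of miR-133a, 202 units of miR-133b and 22.8 units of miR-206, known as miRs of skeletal or heart muscle. The highest of the other 5 arrays held 1.01, 1.71, 6.18 and 5.95 units of these miRs in the same order. Each was well above background on this array alone of all 16, too few for it to be tested. Their part in the results was not tested, and results that could rest on this array are given without it as well. Without it 139 miRs passed the test in place of 149, and 136 of the 149 passed in the same direction. The summed signal was 282780, 335064 and 113362 units on the GMP arrays and 221677, 164053 and 89579 units on the MEP arrays, with 372, 384 and 375 probes well above background on GMP and 330, 339 and 391 on MEP. No spot was saturated.

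Of 237 miRs tested, 97 were higher in GMP and 52 were higher in MEP at a Benjamini-Hochberg adjusted p under 0.05 in limma, together 62.9% of those tested (40.9% higher in GMP and 21.9% higher in MEP). Values are log2 signals after quantile normalization, which gives every array the same distribution, and differences are log2 GMP minus log2 MEP unless a direction is named. The median difference was 1.71 among the miRs higher in GMP and -2.12 among those higher in MEP, against 0.44 over all 237. With undetected sides at their bound, and a miR without a bound counted as no difference, these medians were 1.10, -1.81 and 0.23. The 3 GMP values and the 3 MEP values did not overlap for 94 of the 97 and 46 of the 52, and for 66.7% of all tested miRs. A miR could pass the detection filter through the brighter population alone, or through arrays of populations other than GMP and MEP. The miRs called higher in GMP although no GMP or MEP array detected them included miR-10a*, miR-29a*, miR-193 and miR-200b. On the MEP side 43 of the 97 miRs higher in GMP were not well above background on any array, and on the GMP side this held for 14 of the 52 higher in MEP. Of the 43, 22 were detected on all 3 GMP arrays, and of the 14, 8 were detected on all 3 MEP arrays. For miRs with an undetected side the size of the difference depends on the floor. Only a bound on the fold, where one could be set, is given for them. Both slides gave the same sign for all 97 miRs higher in GMP and for 51 of the 52 higher in MEP. The split between the branches depended on the scaling. Where arrays were scaled instead by a 75th percentile, taken over those probes that all 16 arrays detected, 61 miRs were higher in GMP and 70 in MEP, so that 46.6% of the calls were for GMP against 65.1% after quantile normalization, and the median difference of all miRs was 0.02 in place of 0.44.

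**Figure D1:**
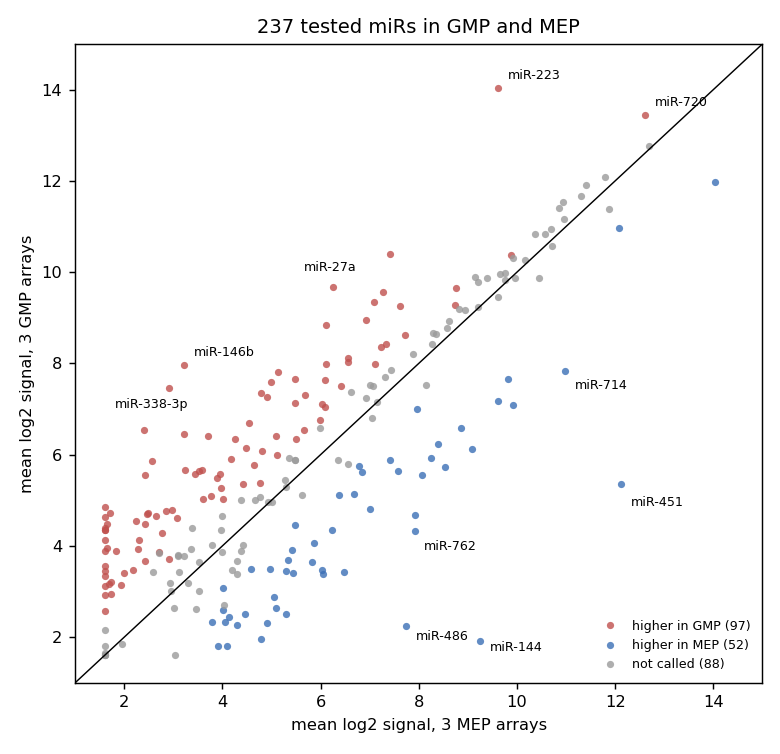
Mean log2 signal of each tested miR on the 3 GMP arrays (y axis) against the 3 MEP arrays (x axis), 1 point per miR, colored by the limma call, with the line of equal levels. The 97 miRs higher in GMP lie above the line and the 52 higher in MEP below it, with miR-144, miR-451 and miR-486 farthest below.

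The granulocyte-monocyte miR-223 was the brightest miR of GMP. Its log2 signal was 14.04 on all 3 GMP arrays, the value that quantile normalization gives to the brightest probe of an array, and 9.97, 10.61 and 8.26 on the MEP arrays. It was also well above background on every MEP array. The normalization fixes the GMP values of miR-223, so the spreads of the populations cannot be compared. The difference was 4.43 ± 0.43 (SE, n = 3 against 3, limma adjusted p 1.41e-06), with 3.75 on slide 1 and 5.78 on slide 2. Without normalization the same probe read 25563, 31658 and 9781 units in GMP and 1059, 1069 and 128 units in MEP.

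miR-146b, whose family is known for restraining inflammatory signalling through Traf6 and Irak1, had the largest difference of the GMP side. It stood at 8.14, 7.91 and 7.86 in GMP and at 3.60, 4.44 and 1.62 in MEP, where 1.62 is the floor and only 1 array was well above background. The populations did not overlap, with a difference of 4.75 ± 0.52 (limma adjusted p 4.97e-06) that fell to 3.95 without MEP replicate 3, the array at the floor. Its paralog miR-146a shares the seed and differs from it by 2 bases near the 3′ end. miR-146a was dimmer in GMP, at 4.84, 5.0 and 4.29, had no detectable signal in MEP, and was at least 2.08-fold higher in GMP (limma adjusted p 0.00211).

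For miR-338-3p and for miR-149, no MEP array gave a detectable signal. miR-338-3p measured 7.31, 7.37 and 7.71 on GMP arrays and 3.06, 3.55 and 2.12 on MEP arrays with every GMP array above each MEP array. miR-149 measured 6.53, 6.66 and 6.41 in GMP against 2.29, 3.29 and 1.62 in MEP, again with no detection on the MEP side. Both sets of arrays were far apart, with limma adjusted p of 6.2e-05 for miR-338-3p and 1.31e-06 for miR-149. The remaining leaders of the GMP side were miR-27a, miR-139-5p, miR-450a-5p and miR-467b. miR-27a was detected on all 6 arrays, and the other 3 were detected on every GMP array and on no MEP array. These 3 were at least 4.65-fold (miR-139-5p), 6.96-fold (miR-450a-5p) and 2.29-fold (miR-467b) higher in GMP.

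**Figure D2:**
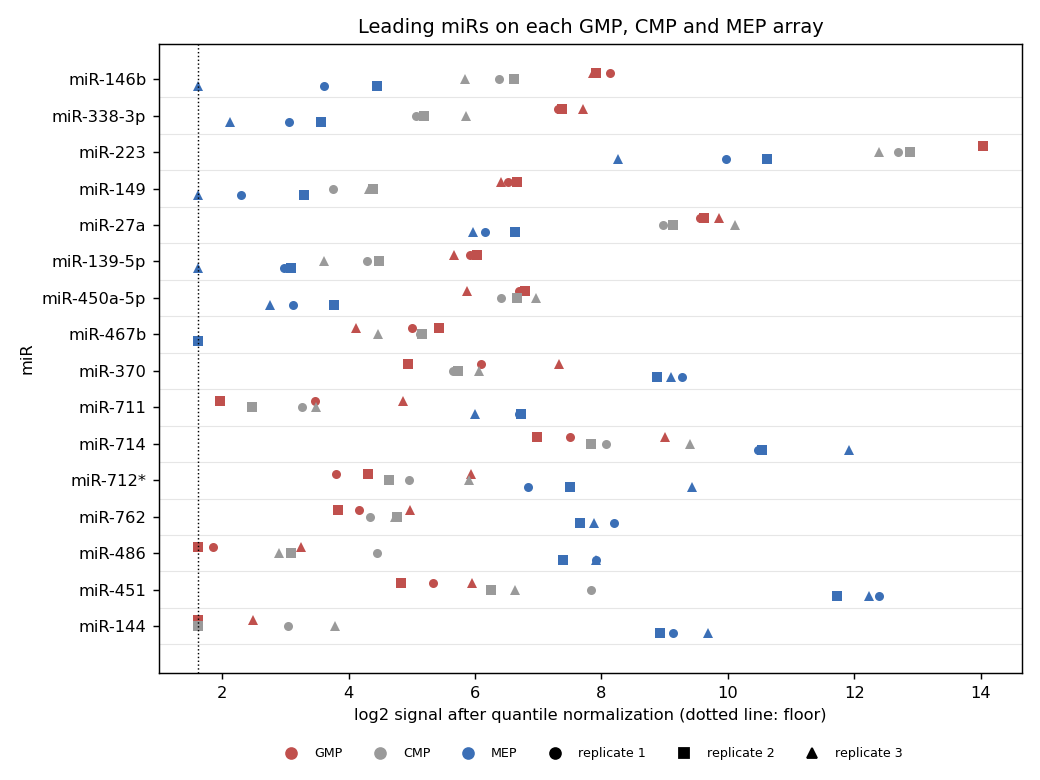
Log2 signal after quantile normalization (x axis) of the 8 leading miRs per direction on each GMP (red), CMP (grey) and MEP (blue) array, with the replicate as the point shape and the floor of 1.62 as a dotted line. The 16 were chosen among miRs whose GMP and MEP values do not overlap, and miR-144, miR-451 and miR-486 show the widest gap.

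The 3 erythroid miRs were the leaders of the MEP side. miR-144 measured 9.14, 8.93 and 9.69 in MEP and was at the floor of 1.62 on 2 GMP arrays and at 2.48 on the third. miR-451, from the same transcript, measured 12.39, 11.73 and 12.24 in MEP and 5.33, 4.82 and 5.95 in GMP, where it was well above background on every array. miR-486, hosted by the ankyrin gene Ank1, measured 7.91, 7.40 and 7.91 in MEP and 1.85, 1.62 and 3.24 in GMP, with no detection there. All 3 were higher in MEP with no overlap, miR-144 at least 51.2-fold, miR-486 at least 17.9-fold and miR-451 by 6.75 ± 0.61 (limma adjusted p 1.04e-06). Their summed signal was 4044 to 6187 units in MEP and 31.5 to 76.9 units in GMP. miR-486 is known in muscle too. Without MEP replicate 1, the array with muscle miRs, all 3 were still higher in MEP by the test, with miR-451 at a difference of -6.62.

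The other leaders of the MEP side were miR-762, miR-712*, miR-714, miR-711 and miR-370. miR-762 stood at 8.19, 7.66 and 7.88 in MEP and 4.16, 3.83 and 4.97 in GMP, which puts it 3.59 ± 0.30 higher in MEP (limma adjusted p 6.47e-07). Without normalization it read 309, 193 and 97.8 units in MEP and 23.1, 18.6 and 20.7 in GMP. miR-370, from the imprinted Dlk1-Dio3 region, stood at 9.28, 8.88 and 9.09 in MEP and 6.09, 4.93 and 7.33 in GMP. The GMP arrays spread more widely than the MEP arrays for this miR, and the highest GMP array was still below every MEP array. The brightest miR of MEP was miR-1224, named here after its values were seen. It measured 14.04 on all 3 MEP arrays, the top value, and 12.39, 10.84 and 12.70 in GMP, a difference of 2.06 ± 0.45 in favour of MEP (limma adjusted p 0.00141).

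The lists of lineage miRs are set against all tested miRs, of which 40.9% were higher in GMP and 21.9% in MEP. Of 11 tested miRs known from hematopoietic stem cells, 8 were higher in GMP and none in MEP, with a median difference of 2.15 against 0.44 over all miRs. These were miR-125b-5p and its genomic neighbours miR-99a and miR-100, the Hox-cluster miRs miR-10a, miR-10b and miR-196b, miR-130a and let-7e. miR-99a and miR-100 differ by 1 base, as do miR-10a and miR-10b, so the 8 are not all separate measurements. let-7e was detected on 1 GMP array and no MEP array. The let-7e call was lost under several alternatives, among them no normalization (limma adjusted p 0.0541) and a floor of 10 units (0.707). miR-99a measured 6.62, 6.72 and 5.86 in GMP and 3.58, 4.12 and 3.45 in MEP (limma adjusted p 1.1e-06). In 5 of the 11 the lower side was not detected, and the median was 0.89 with these at their bound. miR-126-3p, a stem cell and endothelial miR, did not pass the test at 6.05, 6.29 and 5.30 in GMP and 5.54, 5.54 and 5.37 in MEP, and miR-99b and miR-125a-5p were at the floor on all 6 arrays. miR-125a-3p, the other arm of that hairpin and not on the list, was detected on all 6 arrays. It was higher in MEP by 1.54 ± 0.52 (limma adjusted p 0.0200). This call was lost under several alternatives, among them no normalization (limma adjusted p 0.0681) and leaving out MEP replicate 3 (0.112). Of 4 lymphoid miRs, miR-342-3p, miR-181b and miR-181a were higher in GMP. miR-150, known from mature lymphocytes, measured 4.24, 4.08 and 3.02 in GMP and 3.17, 3.85 and 2.28 in MEP, where no array detected it. miR-150 was detected on 2 GMP arrays and did not pass (limma adjusted p 0.201). It passed with replicate number as a block (limma adjusted p 0.0243). Its difference of 0.68 turned to -0.37, with no call, under the first scaling by a 75th percentile. Of 5 granulocyte-monocyte miRs, miR-223 and miR-155 were higher in GMP, and miR-21, miR-142-3p and miR-142-5p did not pass. The share higher in GMP, 40%, was near the 40.9% of all tested miRs. miR-155, a regulator of inflammation and of the factor PU.1, measured 6.74, 6.82 and 5.47 in GMP and 4.38, 4.57 and 3.82 in MEP. miR-142-3p, which is found throughout blood cells, measured 12.70, 12.70 and 12.88 in GMP and 12.70 on all 3 MEP arrays. The miRs of tissues outside blood (liver, brain, epithelium, smooth muscle and muscle) were at or near background apart from the muscle miRs named above. Of 15 such miRs 11 were well above background on none of the 6 arrays, and the other 4 were the muscle miRs on MEP replicate 1. Their summed level was 17.7 to 35.6 units in GMP and 13.1 to 419 in MEP.

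Of the tested miRs, 68 fell into 22 groups that share a seed. In 7 groups every member was higher in GMP, in 1 every member was higher in MEP, in 6 no member passed, in 6 some members were higher in GMP and the rest did not pass, and 2 groups held members of both directions. The miR-181 family, known in lymphocyte development, was of the first kind. Its 4 members differ outside the seed:
miR-181a: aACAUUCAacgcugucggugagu
miR-181b: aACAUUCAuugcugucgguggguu
miR-181c: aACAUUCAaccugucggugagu
miR-181d: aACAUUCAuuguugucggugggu
Sequences this close can share signal on an array, so the members are not separate measurements. miR-181b measured 7.97, 8.0 and 7.50 in GMP and 4.97, 5.56 and 4.88 in MEP, 2.68 ± 0.23 higher in GMP (limma adjusted p 7.52e-07). The other members were higher in GMP by 1.89 (miR-181a), 1.63 (miR-181d) and 1.53 (miR-181c), and all 4 passed under each of 5 other scalings and with each array left out. miR-221 and miR-222, regulators of the Kit receptor, were higher in GMP by 2.74 ± 0.24 and 2.36 ± 0.18, with miR-221 at 8.93, 8.90 and 8.71 in GMP and 6.34, 6.39 and 5.60 in MEP.

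The miR-130, miR-301 and miR-721 group was split by direction although its members share the seed:
miR-130a-3p: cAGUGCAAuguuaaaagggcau
miR-130b-3p: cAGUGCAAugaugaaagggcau
miR-301a-3p: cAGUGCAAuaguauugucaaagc
miR-721: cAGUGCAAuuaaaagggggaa
miR-130a, miR-130b and miR-301a were higher in GMP by 2.59, 1.14 and 1.47, as was miR-301b, which has no sequence here, by 2.13. miR-721 went the other way, at 6.34, 5.58 and 7.80 in GMP and 8.40, 9.0 and 9.20 in MEP, 2.29 ± 0.46 higher in MEP (limma adjusted p 0.000759). Its hairpin lies in Cux1, apart from the others. The other group with both directions was miR-193 and miR-193b, named here after their values were seen. miR-193 was detected on none of the 6 arrays and miR-193b on 1 MEP array only. Neither their calls nor the sizes of their differences are firm.

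A second seed group divided into members that passed and members that did not:
miR-363-3p: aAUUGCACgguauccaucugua
miR-32-5p: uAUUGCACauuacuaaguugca
miR-92a-3p: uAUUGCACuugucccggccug
miR-25-3p: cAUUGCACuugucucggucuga
miR-363 was at least 2.10-fold higher in GMP, at 4.70, 4.97 and 4.52 there and with no detection in MEP (limma adjusted p 5.18e-07). miR-32 was higher in GMP by 2.08 ± 0.69 (limma adjusted p 0.0177). The bright members did not pass, miR-92a at 11.73, 11.79 and 11.49 in GMP and 11.40, 11.49 and 11.03 in MEP, and miR-25 at 9.97, 10.02 and 9.62 in GMP and 10.19, 10.02 and 9.66 in MEP. The miR-17 group (miR-17, miR-20a, miR-20b, miR-93, miR-106a and miR-106b), which is known to drive cell division, had no member that passed, and its differences ran from 0.10 to 0.51. Of these, miR-20a passed with replicate number as a block (limma adjusted p 0.033). Of 9 let-7 and miR-98 members, 3 were higher in GMP (let-7e, miR-98 and let-7i), with a list median of 0.47, near that of all miRs. Counts of these last groups changed with the scaling. Over the 5 other scalings 0 to 6 of 6 miR-17 members and 0 to 6 of 9 let-7 members were higher in GMP.

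Hairpins were next grouped by genomic cluster. All 4 tested miRs of the miR-23amiR-27amiR-24-2 cluster (chr8:84208563-84208896), a target of the myeloid factor PU.1, were higher in GMP, with a median difference of 2.62. miR-23a measured 10.27, 10.42 and 10.48 in GMP and 7.58, 7.65 and 6.98 in MEP. miR-27a measured 9.55, 9.62 and 9.85 in GMP and 6.15, 6.63 and 5.97 in MEP. These arrays stood apart on both slides, with differences of 2.99 ± 0.20 (miR-23a, limma adjusted p 3.61e-07) and 3.43 ± 0.32 (miR-27a, 1.1e-06). miR-24 was higher by 2.26 ± 0.24, and its 2 hairpins, one of them in the paralogous miR-23bmiR-27bmiR-24-1 cluster on chromosome 13, make the same mature miR. The other members of the paralogous cluster were higher in GMP by less, miR-27b by 2.04 and miR-23b by 1.66. The mature miR-27a and miR-27b differ by 1 base, so the probes of each can read some of the other. All members of the clusters miR-181a~miR-181b, miR-181c~miR-181d, miR-221~miR-222, miR-301b~miR-130b and miR-191~miR-425 that were tested (3, 2, 2, 3 and 3) were higher in GMP, with medians of 2.68, 1.58, 2.55, 2.13 and 1.41. With undetected sides at their bound the median of miR-181a~miR-181b was 1.89 and that of miR-191~miR-425 was 0.89.

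On the X chromosome, 7 of 8 tested members of the miR-322miR-503miR-351miR-542miR-450 cluster (chrX:53048008-53054327) were higher in GMP, with a median of 1.60, and miR-450a-3p did not pass. In 6 of the 8 the lower side was not detected, and with these at their bound the median was 0.38. miR-322, which shares the miR-15 and miR-16 seed, was detected on all arrays at 7.44, 7.71 and 7.37 in GMP and 6.55, 6.65 and 6.03 in MEP (limma adjusted p 0.00119). The miR-532miR-188miR-362miR-501miR-500 cluster within Clcn5 (chrX:7237695-7248440) held 5 members higher in GMP and 1 higher in MEP. That member, miR-188-5p, measured 5.53, 4.86 and 6.53 in GMP and 7.40, 7.88 and 7.44 in MEP (limma adjusted p 0.000829), while its neighbour miR-362-3p measured 4.75, 5.27 and 4.31 in GMP and 2.98, 3.21 and 2.72 in MEP. Counts of GMP-higher members in the Clcn5 cluster were 2 to 5 under the other scalings, and miR-188-5p was higher in MEP under each.

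The miR-17~miR-92 cluster (chr14:115043684-115044496) had few members that passed. Of 10 tested members 3 were higher in GMP, namely miR-19a*, miR-20a* and miR-18a*, all from the arm that yields less miR, and none was higher in MEP, with a median of 0.39. miR-17 measured 8.40, 8.47 and 8.40 in GMP and 8.56, 8.08 and 8.19 in MEP, and miR-19b 12.07, 12.24 and 11.92 in GMP and 12.07, 11.92 and 11.40 in MEP. miR-20a had the largest difference of the abundant strands, 0.51 ± 0.23 (limma adjusted p 0.075), and the arrays of miR-20a did not overlap. Under the other scalings 0 to 10 members were higher in GMP, and 1 was higher in MEP with the authors' deposited values. The related miR-106b~miR-25 and miR-106a~miR-363 clusters had 2 of 5 and 1 of 5 members higher in GMP, against 40.9% of all tested miRs, and 0 to 5 and 1 to 5 under the other scalings.

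The imprinted Dlk1-Dio3 and Sfmbt2 regions hold large sets of miR hairpins. Of 6 tested Dlk1-Dio3 miRs 4 were higher in MEP (miR-370, miR-341, miR-134 and miR-494) and none in GMP, with a median of -1.63 (-1.47 at the bound). miR-134 measured 3.11, 2.97 and 4.27 in GMP and 4.86, 5.29 and 5.72 in MEP. miR-376c of this region was at the floor on 5 arrays and at 5.88 on MEP replicate 1, the array with muscle miRs, and did not pass. Without that array 4 of the 6 were still higher in MEP. Of 9 tested miRs hosted by Sfmbt2, 4 were higher in GMP (miR-467a, miR-467a*, miR-467b and miR-467e), or 44.4% against 40.9% of all tested miRs, and 3 in MEP. Under the other scalings these counts were 3 to 5 and 0 to 4. miR-467b measured 5.0, 5.43 and 4.12 in GMP and was at the floor in MEP. miR-669c measured 4.31, 4.15 and 3.73 in GMP and 6.51, 5.90 and 5.15 in MEP, and miR-466c-5p and miR-466f-3p were also higher in MEP. Both tested miRs of the miR-290~miR-295 cluster, known from embryonic stem cells, were higher in MEP, miR-290-5p by 1.02 ± 0.22.

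**Figure D3:**
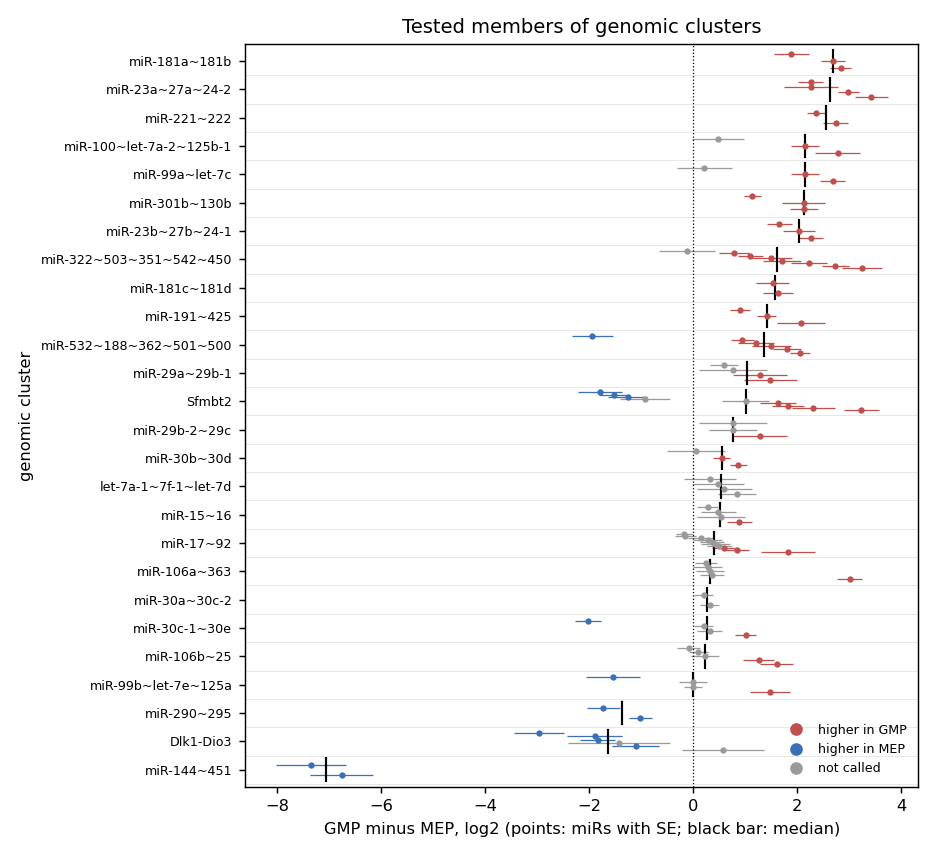
Log2 difference, GMP minus MEP (x axis), of each tested member of the genomic clusters with at least 2 tested members (y axis), with SE bars, colored by the limma call, and the cluster median as a black bar. The miR-144~miR-451 cluster lies far to the MEP side at a median of -7.05 (-6.22 with miR-144 at its bound), the miR-23amiR-27amiR-24-2, miR-181a~miR-181b and miR-221~miR-222 clusters lie to the GMP side, and miR-17~miR-92 lies near 0.39.

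Both arms of 42 hairpins were tested. In 15 hairpins both arms passed in the same direction, in 17 only 1 arm passed, in 9 neither passed, and in 1, miR-139, the arms passed in opposite directions. The 2 arms had the same sign in 33 hairpins. A shift in the log2 ratio of the 5p arm to the 3p arm was tested in the same kind of limma fit, with adjustment over the 42 hairpins, and 10 hairpins passed (23.8%). With replicate number as a block 20 passed. In none of the 10 were both arms well above background on all 6 arrays, which held for 7 of the 42 hairpins (miR-15b, miR-17, miR-18a, miR-20a, miR-140, miR-142 and miR-712).

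The miR-139 arms, cut from a hairpin within Pde2a (chr7:101475382-101475403 and chr7:101475418-101475439), split the branches:
miR-139-5p: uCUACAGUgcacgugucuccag
miR-139-3p: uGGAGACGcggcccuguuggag
miR-139-5p measured 5.92, 6.03 and 5.67 in GMP and 2.97, 3.09 and 1.62 in MEP, with no detection in MEP. miR-139-3p was detected on all 6 arrays, at 5.83, 5.69 and 5.72 in GMP and 6.53, 7.02 and 6.79 in MEP (1.03 ± 0.28 higher in MEP, limma adjusted p 0.00584). The call of miR-139-3p, on which the opposite directions rest, was lost without normalization (difference -0.77, limma adjusted p 0.322). The shift was 4.34 ± 0.42 (limma adjusted p 3.58e-06), or 3.25 with the undetected arm at its bound. It was 3.96 on slide 1 and 5.12 on slide 2.

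miR-338, within Aatk, shifted to the 3p arm in GMP:
miR-338-5p: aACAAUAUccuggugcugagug
miR-338-3p: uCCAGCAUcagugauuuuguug
miR-338-5p was detected on all 6 arrays and did not pass, at 4.65, 4.64 and 5.73 in GMP and 4.28, 4.05 and 4.77 in MEP, whereas miR-338-3p was detected in GMP alone. The ratio shifted by -3.91 ± 0.95 (limma adjusted p 0.00598), or -3.17 at the bound. For miR-450a the 5p arm was higher in GMP and the 3p arm, at 4.30, 3.13 and 4.17 in GMP and 3.29, 3.64 and 5.02 in MEP, did not pass, a shift of 3.36 ± 0.62, or 2.92 at the bound. The 5p arm of miR-450a is made by 2 hairpins, so its level is not that of one alone. For miR-30c-1, within Nfyc, the bright miR-30c did not pass (8.61, 8.76 and 8.95 in GMP and 8.71, 8.40 and 8.61 in MEP), and the other arm, miR-30c-1*, was higher in MEP at 4.95, 5.67 and 5.69 against 3.36, 3.20 and 3.68 in GMP. miR-30c is also made by a further hairpin, so its level is not that of miR-30c-1 alone. The shift of miR-30c-1 was 2.22 ± 0.29. No bound was set for it because 1 of the 3 GMP arrays detected miR-30c-1*, and the other GMP arrays did not.

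miR-19a and miR-542 completed the 6 largest shifts. miR-19a* was higher in GMP at 4.19, 4.17 and 3.99 against 2.05, 2.37 and 2.45 in MEP, with no detection in MEP, while miR-19a measured 10.54, 10.54 and 10.61 in GMP and 10.72, 10.66 and 10.77 in MEP. Its shift was 1.98, and 0.62 at the bound. For miR-542 both arms were higher in GMP and undetected in MEP, with a shift of -1.94. The shift was -0.64 with both arms at their bounds, which sets no limit on its size. The call of miR-542-5p itself (limma adjusted p 0.0275) was lost without MEP replicate 1 (0.0859), GMP replicate 1 (0.0911) or GMP replicate 2 (0.0537), and the miR-542-5p difference turned to -0.19 under the first scaling by a 75th percentile. The remaining called shifts were those of miR-574 (-1.71), miR-106b (-1.51), miR-21 (-1.32) and miR-181a-1 (-0.95). With miR-181a-1* at its bound the shift of miR-181a-1 was at most 1.06, so its sign is not fixed. The shift of miR-21 was -0.73 at the bound. With arrays scaled by either 75th percentile or not normalized, the shifts of miR-574, miR-106b, miR-21, miR-181a-1 and miR-19a did not pass, and the other 5 passed. These settings differ only through the floor in a ratio of arms, so they are not separate alternatives. The miR-181a-1 shift also failed to pass without either of GMP replicates 1 and 2 or MEP replicates 2 and 3.

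**Figure D4:**
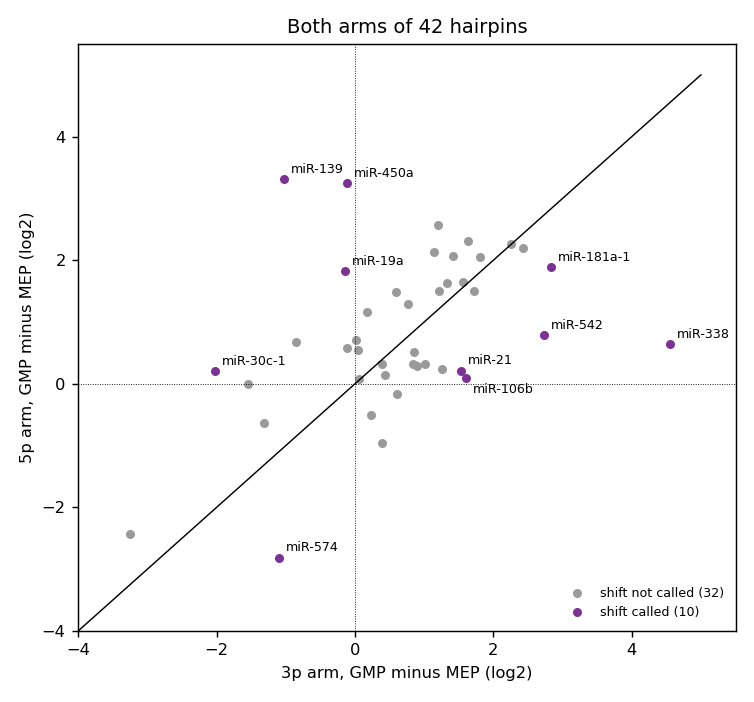
Log2 difference, GMP minus MEP, of the 5p arm (y axis) against that of the 3p arm (x axis) for 42 hairpins, 1 point each, with the line of equal change and the 10 called shifts in purple. miR-139, in the upper left, has a called change of opposite direction in each arm, and miR-338 lies farthest below the line.

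The miRs higher in MEP held many entries of a series first cloned in mouse and numbered miR-680 to miR-721, miR-762, miR-763, miR-801 and miR-805, a list drawn with results of these data known. Of 24 tested, 19 were higher in MEP and 1, miR-720, in GMP, against 21.9% and 40.9% of all tested miRs, with a median of -2.25 (-2.16 at the bound). miR-720, whose entry is known to overlap a transfer RNA, measured 13.44 on each GMP array and 12.88, 12.88 and 12.07 on the MEP arrays (limma adjusted p 0.00345), a call lost for miR-720 under the first scaling by a 75th percentile (0.166) and without normalization (0.0596). Of the 19, miR-714 was the brightest in MEP, at 10.48, 10.54 and 11.92 against 7.50, 6.98 and 9.0 in GMP. Under the other scalings 16 to 21 of the 24 were higher in MEP, and 17 were without MEP replicate 1. Leaving this series out, 33 miRs were higher in MEP.

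Base composition went with the direction. RefSeq held a mature sequence for 189 of the 237 miRs. Their median share of G and C was 45.5% among 84 miRs higher in GMP, 59.1% among 37 higher in MEP and 45.5% among 68 that did not pass. More than 60% was reached by 6, 16 and 9 of them. The stretch GGG, searched on the mature strand, was in 21 of the 37 miRs higher in MEP (56.8%) and in 22 of the 84 higher in GMP (26.2%), against 30.7% of all 189. Of the 37, miR-762 was the richest at 81.8% and miR-144 the poorest at 30%. Leaving the cloned series out, the median was 59.1% for 26 miRs higher in MEP. The part of labelling, hybridisation or RNA degradation in this was not tested.

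**Figure D5:**
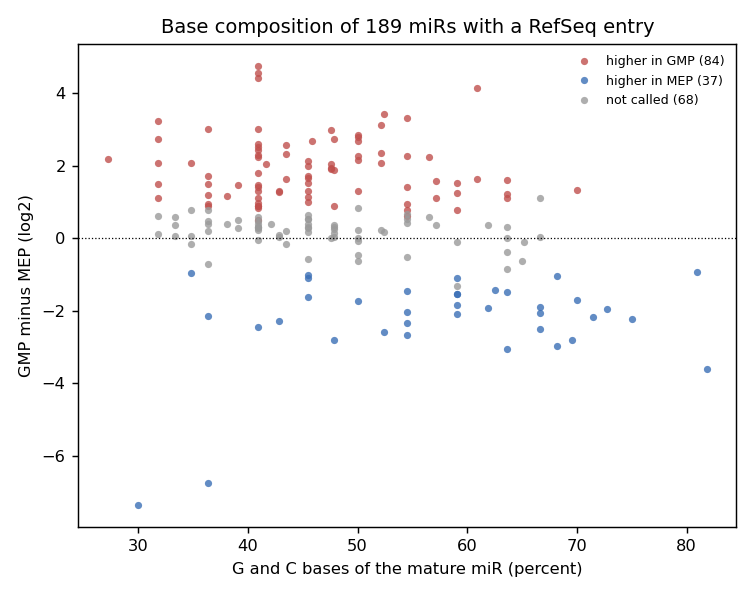
Log2 difference, GMP minus MEP (y axis), against the percent of G and C bases (x axis) for 189 miRs with a RefSeq sequence, colored by the limma call. miRs above 60% lie mostly below 0, and miR-144 and miR-451, at 30% and 36.4%, are the lowest points on the left.

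CMP, the population sorted beside both, was nearer to GMP. Over the tested miRs the median absolute difference was 0.29 between CMP and GMP and 1.22 between CMP and MEP, against 1.26 between GMP and MEP. The CMP mean was nearer to the GMP mean for 136 of the 149 miRs that separated GMP from MEP, and nearer to the MEP mean for 13. Among the 97 higher in GMP, CMP lay between the populations for 49 and above both for 48. Among the 52 higher in MEP it lay between for 26 and below both for 26. No test was made on these positions. miR-181a stood at a mean of 8.96 in CMP, 7.99 in GMP and 6.10 in MEP, and miR-144 at 2.81, 1.91 and 9.25 in the same order. Negative controls were brighter on CMP replicates 1 and 2, with a 95th percentile of 30.6 and 44.3 units, above the 1.53 to 17.3 units of the GMP and MEP arrays.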

How the data were processed

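RNA of sorted bone marrow populations was hybridised to one-colour Agilent mouse miR arrays, and 3 GMP and 3 MEP arrays of 16 were compared. The deposited scanner files hold spot intensity values, background-subtracted by Agilent Feature Extraction and not normalized between arrays. A log2 table that the authors deposited, quantile-normalized by them with limma (its version is not given in the sources used here), served as an alternative. Groups came from the sample titles.

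Control spots and outlier spots were left out, spots of a probe averaged, and a probe counted as well above background where at least a share of 0.5 of its spots was. Probe means of all 16 arrays were quantile-normalized, raised to a floor of 3.07 units and log2-transformed. Probes well above background on at least 3 arrays were kept and the brightest stood for its miR (237 miRs). With limma (version 3.58.1, in R 4.3.3) a linear model fitted 1 mean per population to all 16 arrays (10 residual degrees of freedom) and gave two-sided p-values with Benjamini-Hochberg adjustment over the 237 miRs, called under 0.05. Replicates were pools of mice, and whether any mouse contributed to more than 1 pool is not given in the sources used here. The number of arrays limits the precision. Bounds on a fold set the brighter mean against the higher of the dimmer probe and the lowest signal well above background, per array. Where an undetected side allowed no bound, the miR was counted as no difference in every median and shift given at the bound.

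Named miRs were, for each direction, the 8 called ones of largest difference that were detected on every array of the brighter side and did not overlap, the leading member of each list with at least 3 tested miRs and any called against its median, both arms of the 6 largest called arm shifts, and the miRs that the study's introduction names for blood. Further members of a list are named to describe its count. Members, lists and tests were chosen with earlier results of these data known. Sequences were matched to RefSeq by name for 189 miRs.

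Samples with the same replicate number deviated from their group means together, with correlations across miRs of 0.227, 0.315 and 0.555. Replicates 1 and 2 shared a slide, and GMP 1 with MEP 2 (0.388) and GMP 2 with MEP 1 (0.350) correlated more than the pairs of equal number on that slide. These values therefore do not show a pairing by number, and pair and slide cannot be told apart for replicate 3. Replicate number as a block was an alternative only.

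Alternatives covered the scaling, normexp background correction with an offset of 50, the floor (1 and 10 units), the detection filter, the mean of probes, the 6 arrays alone, an intensity trend, slide or replicate as a block, slide 1 alone, unadjusted p, the authors' values and each array left out. List counts under each scaling and without MEP replicate 1 were added after the data were seen. The fits were tested on simulated data. Sequences were read with Python 3.11.15 and pandas 2.3.3, and plots drawn with matplotlib 3.10.9.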

Additional observations from a re-analysis of the deposited data

Results flagged for a closer look

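The muscle miRs on MEP replicate 1 lie outside the tested miRs, since each was well above background on this array alone. Before normalization miR-1 read 166 units, miR-133a 117 units, miR-133b 202 units and miR-206 22.8 units, against at most 1.01, 1.71, 6.18 and 5.95 units on the other 5 arrays.

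The array also holds probes for miRs of a mouse herpesvirus. Signal of mghv-miR-M1-2 exceeded background by the spot calls on 5 of the 6 arrays, with 10.5, 11.1 and 12.3 units in GMP and 30.6, 21.5 and 15.1 units in MEP before normalization.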

How the results depend on the processing

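No called miR passed the test in the opposite direction under any alternative. The 149 called miRs (97 higher in GMP, 52 in MEP) numbered between 111 and 181 under other scalings, and 61 were higher in GMP when arrays were scaled by the 75th percentile of probes well above background on all arrays. The median difference over all miRs was 0.02 under that scaling, 1.09 without normalization, 1.05 with the 75th percentile of all probes, 0.17 with normexp and 0.15 with the authors' values, against 0.44. With detection required on all 6 arrays, 69 of 126 miRs passed, 44 higher in GMP and 25 in MEP, since fewer miRs were tested. Leaving out each array in turn gave 127 to 147 called miRs, 85 to 97 higher in GMP and 42 to 50 higher in MEP. With unadjusted p under 0.05, 155 passed. The replicate block gave 163 called miRs and kept all 149 calls, and the slide block gave 192. Apart from calls gained, the replicate block changed no other call. The 10 arm shifts were the least stable. They numbered 5 under scaling by either 75th percentile and without normalization, 16 with the authors' values, 17 with a floor of 10 units, 27 with slide as a block, 20 with the replicate block and 17 on slide 1 alone, and 9 to 14 with an array left out. A scaling factor of an array cancels in the ratio of arms. For the shifts, both 75th percentile scalings and no normalization therefore differ only through the floor and are not separate alternatives. The cause of the changes in number was not tested. Among single values, the called miR-15b* (-0.020) and miR-542-5p (-0.19) turned negative under the first scaling. So did let-7d* (-0.18), miR-150 (-0.37), miR-338-5p (-0.35), miR-17 (-0.002) and miR-19b (-0.008), called in neither fit. miR-18a (0.82) and miR-19a (0.80) turned positive under the 75th percentile of all probes, and without normalization (0.85 and 0.84). The sign of miR-17 also turned with the authors' values. That of miR-450a-3p turned on slide 1 alone and without GMP replicate 2 or MEP replicate 3. The miR-181a-1 shift turned to 0.88 with normexp, 0.72 with the authors' values and 0.72 with a floor of 10. Of 1494 single values under alternatives, 1370 kept direction and call, 78 lost the call and 28 gained it. Of the rest, 7 changed sign with a call in at least 1 of the fits, and 11 changed sign with no call. Values near the floor, mostly on the MEP side, limit the size of differences.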

Other observations

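A star in a name on this array marks a strand that was named as the less abundant one of a duplex. On these arrays the probe signal of miR-140*, miR-191* and miR-674* was above that of the other strand in both populations. Probes of different sequence do not rank the amounts of the strands. No GMP or MEP array detected miR-674, and 2 arrays of each population detected miR-674*. No MEP array detected miR-191. Of 31 star strands tested, 17 were higher in GMP and 3 in MEP, against 40.9% and 21.9% of all tested miRs. Over the other scalings 4 to 19 were higher in GMP and 2 to 5 in MEP, and with each array left out 15 to 16 and 3. The miR-29 family, known to repress collagens and DNA methyltransferases, had none of its 3 mature members pass, with miR-29a at 9.85, 9.85 and 9.66 in GMP and 9.34, 9.37 and 8.90 in MEP, a difference of 0.59 ± 0.27 (limma adjusted p 0.0696). Over the other scalings 0 to 3 of them were higher in GMP.

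The miR-148 and miR-152 family was higher in GMP in all 3 members. miR-148a measured 9.52, 9.58 and 9.58 in GMP and 7.55, 7.48 and 6.82 in MEP, 2.28 ± 0.22 higher in GMP (limma adjusted p 1.43e-06). miR-148b was higher by 0.89 ± 0.22, and miR-152 was not well above background on any MEP array.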
